A study of Mus musculus with 18 samples.

Results

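The genes described here were 8 genes of iron uptake, storage and export (Tfrc, Trf, Slc11a2, Fth1, Ftl1, Slc40a1, Heph and Cp), of 55401 gene identifiers in the count table. They were matched by symbol to the identifiers, and all 8 passed the filter on low counts that left 18994 genes. The group was chosen by the measured expression of Tfrc and Heph, whose levels differed between formalin-injected and CFA-injected mice. Their values in any comparison that uses those mice are therefore given as a description, with no test, as are the values of all 8 genes between the formalin and CFA groups. PolyA RNA was sequenced from 2 brain regions of wild-type male C57BL/6 mice aged 6 to 8 weeks, the prelimbic medial prefrontal cortex (mPFC) and the BNST (bed nucleus of the stria terminalis). Mice were untreated by the sample labels (control) or received formalin, a model of acute pain, with tissue taken at 24 h, or complete Freund's adjuvant (CFA), a model of persistent pain, with tissue taken at 72 h. Each of the 6 combinations of region and treatment had 3 libraries from 3 brains. The study's figure legends call the control mice sham-treated, so whether they received a vehicle injection is not settled. The agent and the time after injection changed together and cannot be told apart, and if the controls were not injected, neither can the injection.

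Cells take up iron mainly as transferrin, the iron carrier encoded by Trf, which binds the transferrin receptor encoded by Tfrc and is carried into endosomes, where the transporter DMT1 (Slc11a2) moves iron to the cytosol. Iron that is not used is stored in ferritin, a shell of heavy (Fth1) and light (Ftl1) chains. Iron leaves the cell through ferroportin (Slc40a1), and the ferroxidases hephaestin (Heph) and ceruloplasmin (Cp) oxidise it on the way out. In the brain, oligodendrocytes are rich in ferritin and transferrin. When iron is scarce, iron regulatory proteins bind stem-loops called iron-responsive elements, which blocks translation when the loop is in the 5' UTR and protects the messenger when loops are in the 3' UTR.

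On GRCm38, Tfrc (ENSMUSG00000022797.16) lies at chr16:32608920-32632794 on the plus strand, Trf (ENSMUSG00000032554.15) at chr9:103204001-103230444 on the minus strand and Slc11a2 (ENSMUSG00000023030.16) at chr15:100387898-100425072 on the minus strand. The storage genes Fth1 (ENSMUSG00000024661.7) and Ftl1 (ENSMUSG00000050708.16) lie at chr19:9980598-9985098 on the plus strand and chr7:45457944-45459884 on the minus strand. Of the export genes, Slc40a1 (ENSMUSG00000025993.10) lies at chr1:45908068-45926523 on the minus strand, Heph (ENSMUSG00000031209.14) at chrX:96455359-96574485 and Cp (ENSMUSG00000003617.16) at chr3:19957054-20009145, both on the plus strand. All 8 are annotated as protein-coding genes, and a count covers reads assigned to the whole gene.

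A search for the loop letters of this element is shown because the matches fell in the UTRs of 4 of the 8 genes. The motif was a C, any 5 bases, CAGTG and any base, with 5 bases on each side of the loop required to pair and G-T pairs allowed, read on the sense strand of complete protein-coding transcripts of GENCODE M21 (GRCm38). Capitals mark the 6 loop bases. The 5' UTR matches lay in Fth1 at chr19:9982733-9982759 on the plus strand, in Ftl1 at chr7:45459780-45459806 on the minus strand and in Slc40a1 at chr1:45925466-45925492 on the minus strand.
Fth1: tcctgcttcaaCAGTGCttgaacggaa
Ftl1: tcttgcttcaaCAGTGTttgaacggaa
Slc40a1: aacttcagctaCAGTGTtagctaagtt
The 3' UTR of Tfrc held 4 matches on the plus strand of chromosome 16, at 32631220-32631246, 32631599-32631625, 32631664-32631690 and 32631711-32631737.
Tfrc copy 1: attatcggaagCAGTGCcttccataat
Tfrc copy 2: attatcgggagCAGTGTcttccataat
Tfrc copy 3: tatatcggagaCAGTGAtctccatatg
Tfrc copy 4: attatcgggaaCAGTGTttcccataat
Of 21767 genes searched, 0.129% held a match in a 5' UTR and 0.583% in a 3' UTR. No match was found in the UTRs of Trf, Heph, Cp or Slc11a2, which says only that these letters were not in the transcripts searched. Slc11a2 is known to have a transcript form with an iron-responsive element in its 3' UTR, and this search did not find it. A match is a description of the sequence.

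Library totals ran from 14781315 to 23408503 counts, with a median of 17337262. The lowest count of any of the 8 genes in a library was 49, for Heph. The region labels were checked against marker genes. Summed CPM (counts relative to the library total, scaled by TMM) of 6 cortical pyramidal neuron markers were 1981 to 2457 in the mPFC libraries and 22.5 to 535 in the BNST libraries. Choroid plexus markers, 8 genes of a tissue inside the ventricles, summed to 164 to 17570 CPM in the CFA BNST libraries, where replicate 2 was the highest. The sums were 2880 to 8706 CPM in the formalin BNST libraries and 23.2 to 729 CPM in the control BNST libraries. Striatal markers, 6 genes, summed to 920 to 2189 CPM in control BNST and to 134 to 473 CPM in CFA BNST. These sums describe what the dissected pieces held, and in bulk tissue fewer cells of a type and less RNA per cell cannot be told apart.

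The level of each gene per length was compared first, as TPM, the count per length of the union of a gene's exons relative to the library's sum of such values. Over the 18 libraries Fth1 was the highest, with a mean of 1512 TPM, followed by Trf with 314 TPM and Ftl1 with 212 TPM, whose ranges overlapped. Tfrc had 70.4 TPM and Slc11a2 32.6 TPM. Heph (6.89 TPM), Cp (5.81 TPM) and Slc40a1 (2.70 TPM) were the lowest, and their ranges over the 18 libraries overlapped. The ranges of Trf (75.3 to 627 TPM) and Tfrc (41.7 to 99.0 TPM) overlapped as well, and after formalin in the mPFC the mean of Trf (86.6 TPM) lay below that of Tfrc (94.3 TPM). In control BNST the order was the same, with Heph and Cp the neighbours whose ranges overlapped. In control mPFC the mean of Ftl1 (197 TPM) lay above that of Trf (138 TPM), and Heph was the lowest at 1.81 TPM. There Cp and Slc40a1 were the neighbours whose ranges overlapped. The union of exons of Fth1 (3469 bp) and Slc40a1 (9000 bp) is longer than their longest complete protein-coding transcripts (1494 and 3370 bp), which lowers their TPM. With those transcript lengths, Heph and Cp changed places over the 18 libraries.

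**Figure D1:**
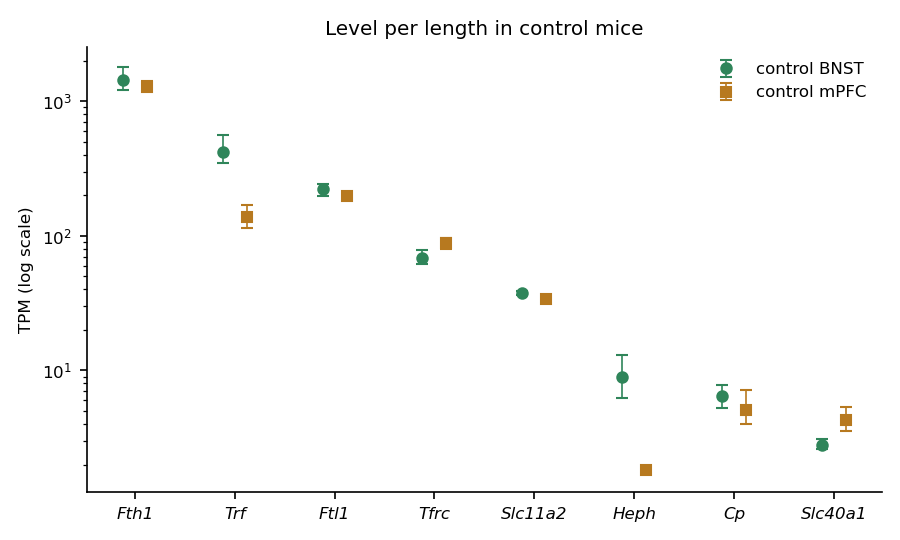
Level per length (TPM, log scale) of the 8 genes in control mice, as the mean of 3 libraries with bars from the lowest to the highest library. Trf and Heph were higher in the BNST (circles), while Slc40a1 was higher in the mPFC (squares).

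BNST and mPFC of control mice were compared to ask how the 2 regions differ without either agent, and the difference itself was between control libraries only. Its standard error and p also used the spread of the injected libraries, which are in the same fit, including those by which Tfrc and Heph were picked. The edgeR quasi-likelihood test, with adjustment over all 18994 genes, called a gene where the adjusted p was below 0.05 and the log2 fold change was beyond 0.5 in either direction. Of the 8 genes 3 were called, 2 higher and 1 lower in the BNST, where 26.6% of all genes tested were called. The median log2 difference of the 8 genes was 0.12, beside 0.04 over all genes tested.

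Heph, the membrane-bound ferroxidase, had 24.8, 11.96 and 13.3 CPM in the BNST libraries and 3.41, 3.56 and 3.71 CPM in the mPFC libraries. The groups did not overlap, and the log2 difference was 2.23 ± 0.24 (SE), with an adjusted p of 1.2e-06 by edgeR. Fitted on the 6 control libraries alone it was called too, with an adjusted p of 0.00055. Trf, the iron carrier, had 462, 287 and 274 CPM in the BNST and 108, 98.1 and 145 CPM in the mPFC. Its log2 difference was 1.54 ± 0.20, with an adjusted p of 2.4e-05 by edgeR. Beside these 2 genes, 10 oligodendrocyte markers summed to 6984 to 10217 CPM in the BNST and 2584 to 4041 CPM in the mPFC. All 10 were called higher in the BNST, as were all 5 ependymal, all 3 GABAergic neuron and all 6 striatal markers. All 6 pyramidal markers were called lower. Over the 18 libraries, with each region's mean subtracted, Pearson's r with the oligodendrocyte list was -0.30 for Heph and 0.58 for Trf. The subtraction removes the difference between the regions, so r describes only the spread within each region. That spread includes the formalin and CFA groups, by which Heph was picked. With the astrocyte list r was 0.64 for Heph and 0.53 for Trf, and with the ependymal list 0.03 and 0.64. For Heph it was -0.60 with mural cells and fibroblasts and -0.53 with the striatal list. The part of these cell types in the differences of Heph and Trf was not tested.

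Slc40a1, the only iron exporter, had 5.81, 6.97 and 5.51 CPM in the BNST and 9.09, 12.5 and 8.18 CPM in the mPFC. It was lower in the BNST by a log2 difference of -0.70 ± 0.20, with an adjusted p of 0.0088 by edgeR. Without control mPFC replicate 2, the library with 12.5 CPM, the adjusted p was 0.072 and the log2 difference -0.50. By the study's methods both regions were dissected from each brain. With a block by the animal numbers of the supplementary column names the call was lost, at -0.47 with an adjusted p of 0.090 by edgeR. Those numbers were 1, 2 and 4 for control BNST and 2, 3 and 4 for control mPFC. Control BNST replicate 1 and control mPFC replicate 2 had no partner, so the blocked difference does not rest on them. It is therefore no separate check from leaving out control mPFC replicate 2. Beside Slc40a1, 8 endothelial markers summed to 83.4 to 134 CPM in the BNST and 137 to 180 CPM in the mPFC. Of these 8, 4 were called lower in the BNST, and their part in the difference was not tested. Tfrc, the receptor, had 99.0, 94.8 and 113 CPM in the BNST and 140, 154 and 126 CPM in the mPFC. The groups did not overlap, and the log2 difference of -0.45 ± 0.12 had an adjusted p of 0.0045 by edgeR but missed the fold threshold. On the control libraries alone the adjusted p of Tfrc was 0.0072, and with a block by animal number it was 0.088, at a log2 difference of -0.36. The storage chains, Slc11a2 and Cp were not called, with log2 differences of 0.12 for Fth1, 0.12 for Ftl1, 0.08 for Slc11a2 and 0.27 for Cp.

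**Figure D2:**
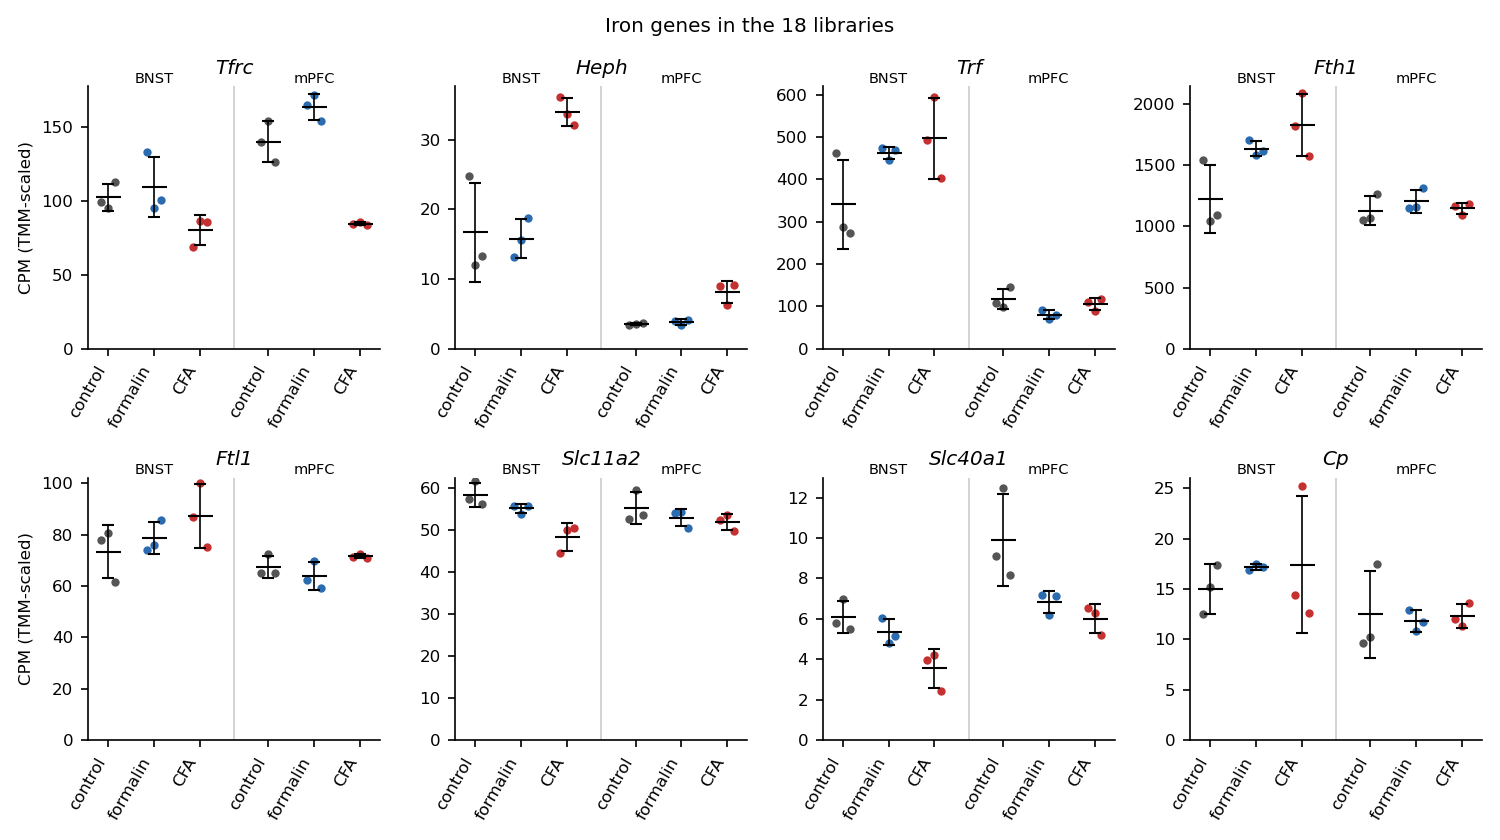
CPM (TMM-scaled, linear axes from 0) of each gene in each library by region and treatment, with the mean and SD of 3 libraries in black. Tfrc in the mPFC was lowest in the 3 CFA libraries, and Heph was highest in the 3 CFA libraries of each region.

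Formalin and CFA were then set side by side. Tfrc in the mPFC had 165, 172 and 154 CPM after formalin and 84.5, 85.6 and 83.5 CPM after CFA. Every formalin library lay above every CFA library, and the log2 difference was 0.95 ± 0.12 (SE). In the BNST, Tfrc had 133, 95.3 and 101 CPM after formalin and 68.8, 86.5 and 85.4 CPM after CFA. The groups were again apart, with a log2 difference of 0.45 ± 0.12, which was 0.29 without formalin BNST replicate 1. That library also held the highest pyramidal marker sum of any BNST library, 535 CPM.

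Heph went the other way. In the mPFC it had 3.96, 3.37 and 4.18 CPM after formalin and 8.98, 6.28 and 9.21 CPM after CFA, with a log2 difference of -1.09 ± 0.24. In the BNST it had 13.1, 15.6 and 18.7 CPM after formalin and 36.1, 33.7 and 32.1 CPM after CFA, with a log2 difference of -1.10 ± 0.21. The groups did not overlap in either region. The libraries of the BNST groups did not overlap for 4 of the 8 genes, where 32.1% of all genes tested did not overlap. Formalin had the higher level in 3 of the 4 and the lower in 1. In the mPFC 3 of 8 did not overlap, 1 higher and 2 lower after formalin, where 28.3% of all genes did not. The others in the BNST were Slc40a1 (log2 difference 0.59 ± 0.21) and Slc11a2 (0.19 ± 0.07), and in the mPFC Ftl1 (-0.17 ± 0.11), all smaller than the values of Heph. Cp in the BNST differed by -0.02, and by 0.34 without CFA BNST replicate 2. These counts describe the contrast by which the genes were chosen.

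**Figure D3:**
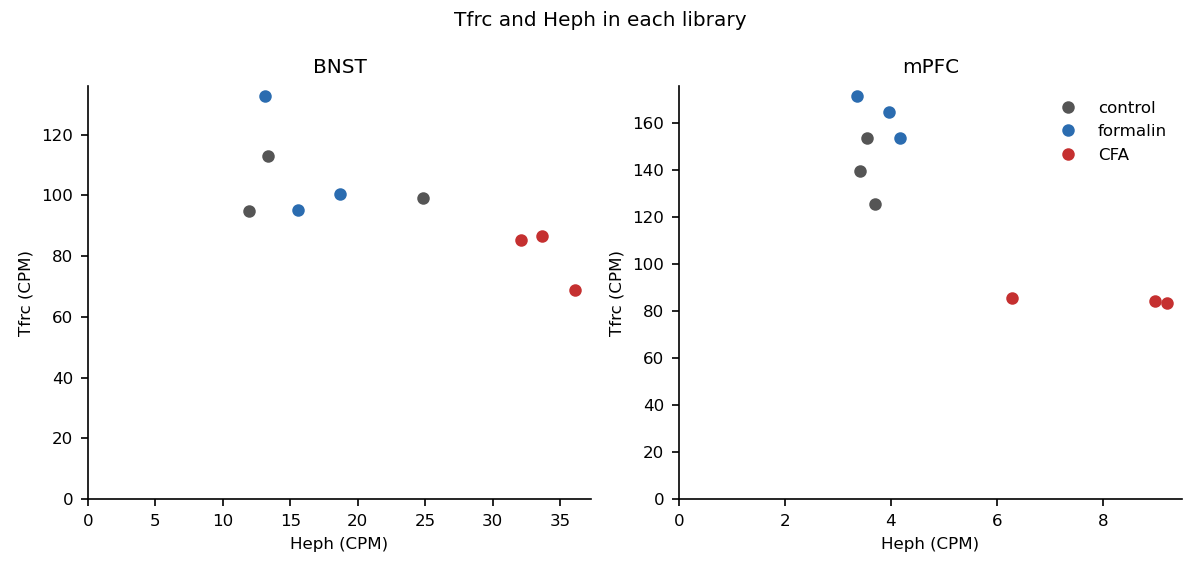
Tfrc against Heph (CPM, linear axes from 0), each point a library, for BNST and mPFC. In each region the 3 CFA libraries have the highest Heph and the lowest Tfrc.

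Each agent was also compared with the controls. The formalin and CFA comparisons share the 3 control libraries of a region. Tfrc in the mPFC, at 140, 154 and 126 CPM in controls, was lower after CFA in every library, by a log2 difference of -0.73 ± 0.12, and was 0.22 ± 0.12 higher after formalin. In the BNST the log2 differences from the control were -0.35 ± 0.12 after CFA, with no overlap, and 0.10 ± 0.12 after formalin, where the libraries overlapped and the value was -0.06 without formalin replicate 1. Heph was higher than the control in all CFA libraries, by 1.20 ± 0.24 in the mPFC and 1.02 ± 0.21 in the BNST. After formalin its log2 differences were 0.11 ± 0.25 in the mPFC and -0.08 ± 0.21 in the BNST, with overlap in both. Control BNST replicate 1, with 24.8 CPM of Heph, stood apart from its group, and without it the BNST values were 1.43 after CFA and 0.33 after formalin.

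**Figure D4:**
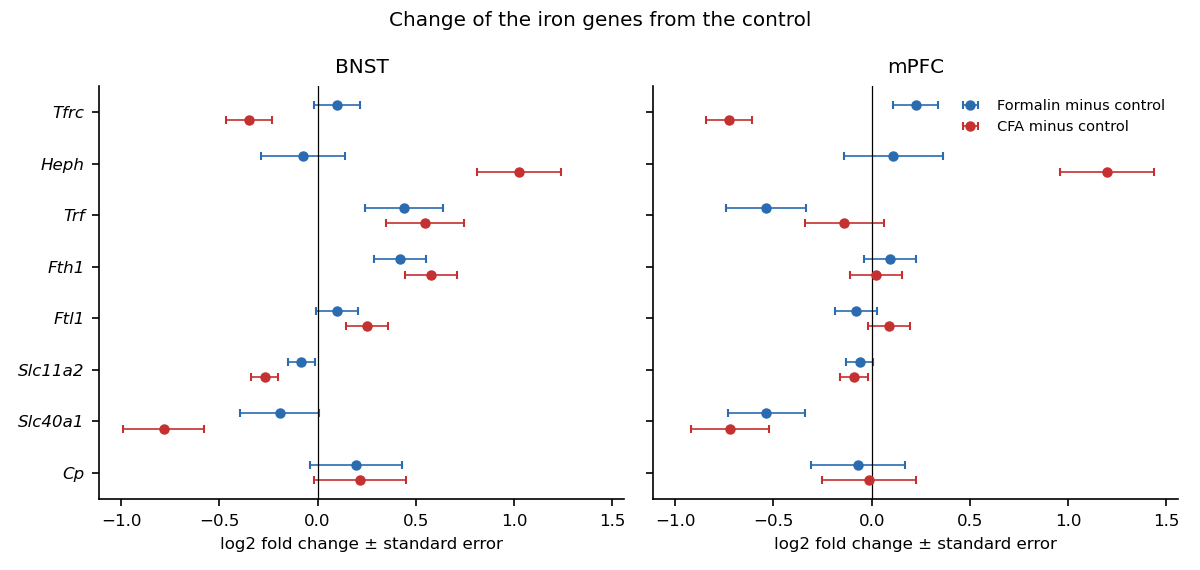
Log2 fold change from the control, with standard errors as bars, for formalin (blue) and CFA (red) in each region. After CFA, Heph was above 0 and Tfrc and Slc40a1 were below 0 in both regions, and the values of Tfrc and Heph are a description.

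The other 6 genes were tested against the control. In the BNST after CFA, 2 of the 6 were called, 1 higher and 1 lower, where 11.9% of all genes tested were called. The median log2 fold change of the 8 genes was 0.23, beside 0.01 over all genes tested.

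Fth1, the ferritin heavy chain, rose after CFA. It had 1542, 1044 and 1090 CPM in control BNST and 1818, 2092 and 1580 CPM after CFA, with no overlap. By TPM the groups overlapped, as control BNST replicate 1 (1788 TPM) lay above CFA BNST replicate 3 (1771 TPM). The log2 fold change of Fth1 was 0.58 ± 0.13, with an adjusted p of 0.0050 by edgeR. Its fold change was below the threshold without control BNST replicate 2 (0.48) or without CFA BNST replicate 2 (0.47). Slc40a1 fell after CFA, from 5.81, 6.97 and 5.51 CPM to 3.97, 4.24 and 2.44 CPM, by 0.78 ± 0.21 on the log2 scale, with an adjusted p of 0.012 by edgeR. With the BNST libraries alone its adjusted p was 0.0503, and with only the 15 libraries that share the tag L2 it was 0.12. Slc11a2, the endosomal transporter, had an adjusted p of 0.011 by edgeR but a log2 fold change of -0.27 ± 0.07, under the fold threshold. Its libraries had 57.2, 61.6 and 56.1 CPM in controls and 44.5, 49.96 and 50.5 CPM after CFA, with no overlap, while the formalin libraries had 55.7, 53.8 and 55.8 CPM. Beside Fth1, Slc40a1 and Slc11a2, all 6 striatal markers were called lower after CFA in the BNST, with a median log2 fold change of -2.60. Of 8 astrocyte markers 1 was called higher and 0 lower, with a median of 0.40. With each region's mean subtracted, r with the astrocyte list over the 18 libraries was 0.77 (Fth1), -0.75 (Slc40a1) and -0.81 (Slc11a2). With the striatal list it was -0.51, 0.68 and 0.69. The part of either list in the changes of these genes was not tested. In the mPFC the 9 libraries of Slc11a2 lay between 49.7 and 59.6 CPM.

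Trf was not called in the BNST after CFA, with 494, 594 and 403 CPM beside 462, 287 and 274 CPM in controls. Its log2 fold change was 0.54 ± 0.20, with an adjusted p of 0.061 by edgeR and 0.0039 without control BNST replicate 1, when the value was 0.83. Control BNST replicate 1 also had the highest oligodendrocyte marker sum of its group, 10217 CPM beside 6984 and 7249 CPM. The CFA libraries had sums of 10422, 11633 and 8014 CPM, with 1 marker called higher and 1 lower of 10, and the part of these cells was not tested. Ftl1, the light chain, had a log2 fold change of 0.25 ± 0.11 and Cp one of 0.22 ± 0.24, neither called. Ftl1 had 77.9, 80.6 and 61.7 CPM in control BNST, 73.9, 76.1 and 85.7 CPM after formalin and 86.75, 100.2 and 75.3 CPM after CFA, and the CFA libraries overlapped both other groups. Cp had 12.5, 15.2 and 17.4 CPM in controls, 16.9, 17.5 and 17.2 CPM after formalin and 14.5, 25.2 and 12.6 CPM after CFA. The highest of these was CFA BNST replicate 2, and without it the log2 fold change of Cp from the control was -0.15. That library held the choroid plexus marker sum of 17570 CPM. It was also the highest CFA BNST library for Fth1, Trf and Ftl1, and the part of that tissue was not tested.

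**Figure D5:**
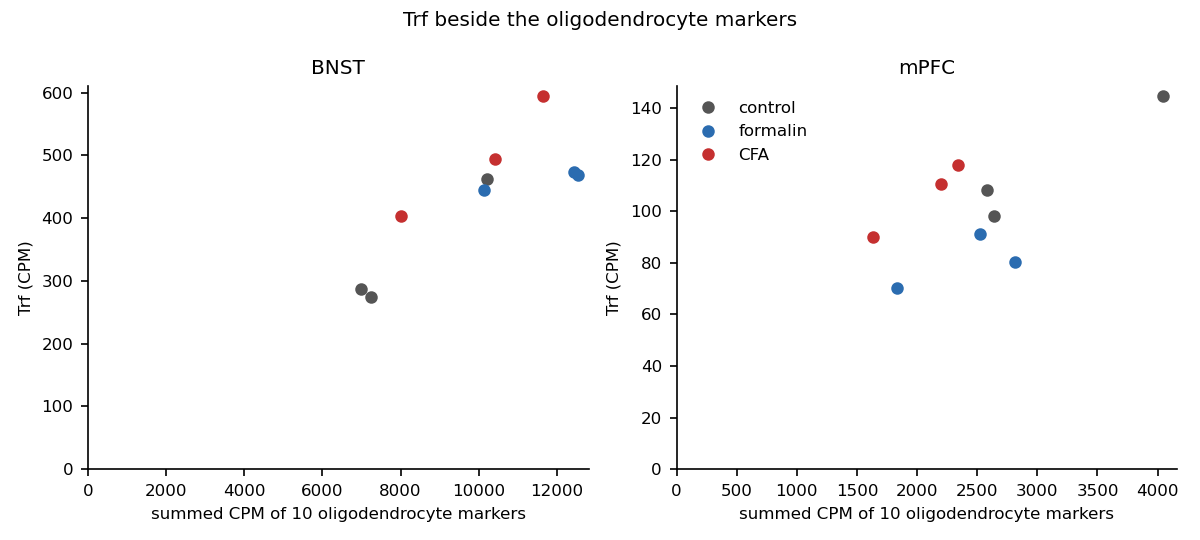
Trf against the summed level of 10 oligodendrocyte markers (both in CPM, linear axes from 0), each point a library. In the BNST the 2 lowest Trf values and the 2 lowest marker sums belong to the same control libraries.

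In the mPFC after CFA, 0 of the 6 genes were called by edgeR, where 0.632% of all genes tested were called, and 1 had an unadjusted p under 0.05. That gene was Slc40a1, with 9.09, 12.5 and 8.18 CPM in controls and 6.56, 6.28 and 5.21 CPM after CFA. Every CFA library lay below every control library, with a log2 fold change of -0.72 ± 0.20 and an adjusted p of 0.099 by edgeR. DESeq2 called it, with an adjusted p of 0.028, as did edgeR on the mPFC libraries alone, with 0.0082. The endothelial marker sum was 101 to 114 CPM in the CFA libraries and 137 to 180 CPM in the controls, with 0 of 8 markers called. The oligodendrocyte marker sum was 1630 to 2339 CPM in the CFA libraries and 2584 to 4041 CPM in the controls. Of these 10 markers 3 were called lower and 0 higher. The part of either list was not tested. Fth1 (0.02 ± 0.13), Ftl1 (0.09 ± 0.11), Slc11a2 (-0.09 ± 0.07), Trf (-0.14 ± 0.20) and Cp (-0.01 ± 0.24) had log2 fold changes that did not pass the test. Fth1 lay between 1056 and 1313 CPM over the 9 mPFC libraries and Ftl1 between 59.3 and 72.6 CPM, with the libraries of CFA and control overlapping for both genes.

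After formalin, 0 of the 6 genes were called by edgeR in the BNST, where 0.3% of all genes were called, and 2 had an unadjusted p under 0.05; DESeq2 called 0. Fth1 had 1708, 1586 and 1617 CPM, all above the controls, with a log2 fold change of 0.42 ± 0.13 and an adjusted p of 0.13 by edgeR. Trf had 473, 445 and 469 CPM and a log2 fold change of 0.44 ± 0.20, with an adjusted p of 0.24 by edgeR. Without control BNST replicate 1, Fth1 was called, at 0.62 with an adjusted p of 0.049 by edgeR. Beside Fth1 and Trf, the ependymal marker sum was 188 to 197 CPM in formalin BNST and 67.8 to 130 CPM in control BNST. The choroid plexus sums were 2880 to 8706 CPM and 23.2 to 729 CPM. The oligodendrocyte sums overlapped, at 10136 to 12531 CPM and 6984 to 10217 CPM. No marker of these lists was called, and the part of these cells in the values of Fth1 and Trf was not tested. In the mPFC 0 of the 6 were called by edgeR, where 0.269% of all genes were called, and 2 had an unadjusted p under 0.05; DESeq2 called 0. These were Slc40a1, at 7.21, 6.19 and 7.12 CPM, with a log2 fold change of -0.54 ± 0.20, and Trf, at 91.3, 70.0 and 80.2 CPM, with -0.54 ± 0.20. The groups did not overlap for either gene, and their adjusted p values were 0.22 and 0.24 by edgeR. The endothelial marker sum was 94.6 to 128 CPM after formalin, below the 137 to 180 CPM of the controls, and the oligodendrocyte marker sum was 1831 to 2811 CPM beside 2584 to 4041 CPM. No marker of either list was called, and their part was not tested. With the mPFC libraries alone, Slc40a1 had an adjusted p of 0.041.

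Whether a change differed between the regions was tested as an interaction. For CFA, 0 of the 6 genes were called by edgeR, where 4.17% of all genes were called, and 2 had an unadjusted p under 0.05. The change of Fth1 in the BNST exceeded that in the mPFC by 0.56 ± 0.19 on the log2 scale, with an adjusted p of 0.10 by edgeR and 0.041 by DESeq2. For Trf the difference was 0.68 ± 0.28, with an adjusted p of 0.20 by edgeR. Without control BNST replicate 1 both were called, with adjusted p of 0.0098 for Fth1 and 0.025 for Trf. For Slc40a1, which was lower after CFA in every library of both regions, the difference of the changes was -0.06 ± 0.28. The untested values were 0.38 ± 0.16 for Tfrc, whose difference from the control was larger in the mPFC, and -0.17 ± 0.32 for Heph, which was 0.23 without control BNST replicate 1 and 0.24 with the block by animal number. For formalin, 0 of 6 were called by edgeR, where 0.158% of all genes were called, and 1 had an unadjusted p under 0.05. That gene was Trf, with a difference of 0.98 ± 0.28 and an adjusted p of 0.15 by edgeR, 0.018 by DESeq2 and 0.033 by edgeR without control BNST replicate 1.

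A wider list of 36 iron genes, for other uptake routes, ferritin turnover, iron regulatory proteins, mitochondrial iron and heme, and the hepcidin axis, had 32 genes tested. Between regions in controls, where 26.6% of all genes tested were called, 2 of the 32 were called, both higher in the BNST. They were Hamp2, a hepcidin gene, with 16, 5 and 15 counts in BNST libraries and 2, 4 and 2 in mPFC libraries, and Tmprss6, a protease that lowers hepcidin, with 21, 23 and 6 counts beside 0, 6 and 8. Both rest on few reads. With the block by animal number, in which control BNST replicate 1 and control mPFC replicate 2 have no partner, 0 of the 32 were called.

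After CFA in the BNST 4 of 32 were called, where 11.9% of all genes tested were called. Scara5, a ferritin receptor, had 1.32, 14.6 and 1.03 CPM after CFA and 0.618, 1.36 and 0.867 CPM in controls. Steap2, a metalloreductase, had 42.0, 152 and 36.7 CPM beside 32.5, 34.7 and 22.4 CPM. Hfe, a partner of the transferrin receptor, had 5.13, 26.7 and 4.08 CPM beside 3.03, 4.14 and 3.96 CPM. All 3 were highest in CFA BNST replicate 2, the library with the choroid plexus marker sum of 17570 CPM. Without it their log2 fold changes were 0.30, 0.40 and 0.31, with adjusted p of 0.71, 0.29 and 0.40 by edgeR. Hamp2 fell, from 16, 5 and 15 counts to 2, 2 and 6 counts, and had an adjusted p of 0.081 by edgeR without that library.

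In the other 5 comparisons 0 of the 32 were called by edgeR, with 3, 8, 3, 7 and 4 genes at an unadjusted p under 0.05 for CFA in the mPFC, formalin in the BNST, formalin in the mPFC, and the region differences of CFA and formalin. Of all genes tested, edgeR called 0.632%, 0.3%, 0.269%, 4.17% and 0.158% in the same order. DESeq2 called 1, 2, 0, 3 and 0 of the list. Among the genes with the 2 smallest p values was Slc39a8 (log2 fold change -1.20) for CFA in the mPFC. For formalin they included Hfe (2.16) and Scara5 (2.63) in the BNST and Slc25a28 (-0.23) in the mPFC. For the region differences they were Slc39a8 (1.27) and Flvcr2 (2.68) after CFA and Flvcr2 (2.74) and Flvcr1 (0.37) after formalin. In the formalin BNST libraries Hfe had 11.7, 22.01 and 16.1 CPM, and these libraries held choroid plexus sums of 2880, 8706 and 5611 CPM; the part of that tissue was not tested.

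The genes most like Tfrc, Heph and Trf were sought among 12199 genes, by Pearson's r of log2 CPM over the 18 libraries after each region's mean was subtracted. The points share treatment groups and libraries, so r is a description. Those most like Tfrc were Apc (0.89), Ptn (0.88), Zfp46 (0.86), Isy1 (0.85) and Ubr3 (0.84). Those most like Heph were Irs2, Acot11 and Tsc22d3 (each 0.94), then Smox and Plin4 (each 0.93). Those most like Trf were Myrf (0.94), a transcription factor of myelinating cells, the myelin gene Mobp (0.88), Plin3 (0.88), Pogk (0.87) and Npc1 (0.87). Tfrc and Heph had an r of -0.82. The 18 libraries include the formalin and CFA libraries by which both genes were picked, so this r is no separate result.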

How the data were processed

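Gene counts were deposited by the authors as raw, unnormalized counts for 18 libraries. Per the study's methods and processing notes, paired-end reads were trimmed with Trimmomatic 0.39, aligned to GRCm38 (mm10) with HISAT2 2.2.1, sorted with Samtools 1.9 and counted with featureCounts 2.0.1. The annotation release, strand setting and treatment of multi-mapping reads are not given in the sources used here, so ferritin counts, whose gene has processed copies, are uncertain: Ftl1-ps1 had 11 to 40 counts in a library and Ftl1 867 to 2033.

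Symbols came from GENCODE M21, and 260 of 55401 identifiers had none. Counts were analysed with edgeR 4.0.16 in R 4.3.3: TMM scaling, filterByExpr (minimum count 10, minimum total 15), and a robust quasi-likelihood fit of all 18 libraries in 6 groups, with Benjamini-Hochberg adjustment over 18994 genes. Calls required an adjusted p below 0.05 and a log2 fold change beyond 0.5 in either direction, as in the study's methods. DESeq2 1.42.0 was an alternative, as were RLE scaling, other filters on low counts, fits on only the libraries compared, leaving out each library, and replicate blocks. Transcript lengths in place of exon unions were an alternative chosen after seeing the data. The code was tested on simulated data. CPM was scaled by TMM, and TPM used the union of exons.

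The members and the wider and marker lists were chosen with earlier results of these data known. The text names all 8 members, each wider-list gene called in a comparison, or where none was called the 2 with the smallest p (1 gene that this names is not reported here), and for Tfrc, Heph and Trf the 5 genes most like them among those with a mean of at least 5 CPM. Column names in the study's supplementary table, joined by equal counts, gave tags: 15 libraries had L2, control BNST replicates 1 and 2 had L1 and formalin BNST replicate 1 had L3. What the tags mark is not stated. Libraries of a group differed beyond counting error (chi-square per degree of freedom 3.82 to 79.6). P-values use the spread between the 3 libraries of a group, shared over all 6 groups of the fit (12 residual degrees of freedom). Groups outside a comparison thus enter its p. By the study's methods both regions were dissected from each brain, and the main fit treated the 18 libraries as separate.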

Additional observations from a re-analysis of the deposited data

How the results depend on the processing

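With 3 libraries a group, small differences could not be told from the spread, and calls near a threshold moved with single libraries. Within a region, replicate numbers did not pair the libraries: deviations of same-numbered libraries correlated at -0.19 to 0.31, above 0.1 in 4 of 18 pairs. By the study's methods both regions were dissected from each brain. The animal numbers in the supplementary column names, whose meaning is not stated, were 1, 2 and 4 for control BNST and 2, 3 and 4 for control mPFC. By these numbers control BNST replicate 1 and control mPFC replicate 2 had no partner. Libraries that share an animal number correlated at -0.03 to 0.17, above 0.1 in 2 of 8 pairs. A block by replicate number changed no call of a member, and 2 of 6 members remained the count for CFA in the BNST. A block by animal number left 0 wider-list genes called between regions in place of 2, gave 1 for the region difference of CFA, turned Fth1 between regions to -0.12 and left Slc40a1 there at -0.47 with an adjusted p of 0.090 by edgeR. The cause of none of these shifts was tested.

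DESeq2 called 1 member and 1 wider-list gene for CFA in the mPFC, 2 wider-list genes for formalin in the BNST, 1 member and 3 wider-list genes for the region difference of CFA and 1 member for that of formalin. A fit on only the libraries compared called 1 member and 0 wider-list genes for CFA in the BNST, 1 and 2 for CFA in the mPFC, and 1 and 1 for formalin in the mPFC. Without a filter on low counts, 1 wider-list gene was called for CFA in the mPFC, and with a stricter one 0 between regions. With the libraries tagged L2 only, the wider-list counts were 1 between regions, 1 for CFA in the mPFC and 2 for the region difference of CFA, which also had 1 member called. There the log2 differences between regions turned to -0.054 for Fth1 and -0.13 for Ftl1, that of Cp for CFA in the BNST to -0.0032 and the region difference of Slc40a1 for CFA to 0.087. Slc11a2 turned for the region difference of formalin, to 0.0039 with DESeq2, 0.0043 with RLE scaling and 0.049 with L2 only. Trf was called for CFA in the BNST with DESeq2 (adjusted p 0.023) and L2 only (0.028).

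Leaving out 1 library at a time gave 1 to 3 members and 0 to 7 wider-list genes called for CFA in the BNST, 0 to 1 wider-list genes for CFA in the mPFC, 0 to 1 members and 0 to 5 wider-list genes for formalin in the BNST, 0 to 2 and 0 to 1 for the region difference of CFA, 0 to 1 and 0 to 4 for that of formalin, and 1 to 3 wider-list genes between regions. The count of 7 came without CFA BNST replicate 3, when 2744 of 19418 genes were called, beside 2269 of 18994 with all libraries. The counts of 5 and 4 came without CFA BNST replicate 2. That library is in the shared fit but not in the formalin comparison. Without it 903 of 19395 genes were called for formalin in the BNST, beside 57 of 18994 with all libraries. The log2 difference of Tfrc between formalin and CFA in the BNST ran from 0.29 to 0.54. Signs turned for members that were not called: Fth1 between regions (-0.083 to 0.22), Cp for CFA in the BNST (-0.15 to 0.40) and mPFC (-0.17 to 0.31) and formalin in the mPFC (-0.23 to 0.25), Fth1 (-0.023 to 0.11) and Trf (-0.25 to 0.042) for CFA in the mPFC, Ftl1 for formalin in the BNST (-0.013 to 0.17), the region difference of CFA for Cp (-0.14 to 0.42) and Slc40a1 (-0.26 to 0.15), and that of formalin for Cp (-0.055 to 0.42) and Slc11a2 (-0.079 to 0.023). Tfrc passed both thresholds between regions without control BNST replicate 3 (-0.53) or control mPFC replicate 3 (-0.52).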
